A study of Mus musculus with 18 samples.

Results

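The response of CD8+ T cells to ibrutinib was compared between cells that had met their antigen again and again and cells that had met it once. The measure was an interaction, that is the log2 change under ibrutinib in repeat peptide stimulated cells minus the log2 change under ibrutinib in single peptide stimulated cells, so a gene with a positive value was higher under the drug after repeat stimulation than its response after single stimulation would give. All 18 of the 18 RNA-seq libraries of the series entered it. The cells were CD8+ T cells of OT-I mice, which the strain tag names as wild type. Their T cell receptor recognises the OVA(257-264) peptide, and they were grown with 10 ng/ml of that peptide, IL-7 and IL-15. Repeat stimulation was daily for 5 days with peptide still present afterwards, and single stimulation lasted 48 h and was followed by a wash and 3 days of rest. From day 5 to day 8 both kinds of culture received 1 µM ibrutinib or the solvent DMSO, which gave 4 repeat DMSO, 5 repeat ibrutinib, 5 single DMSO and 4 single ibrutinib libraries.

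The genotype tag of the labels holds 6 texts, and the libraries that share one are called a tag set here. The texts read INHB-1 left over (A), btk KO-6 (B), BTK KO-1 (C), BTK KO-3 (D), btk KO-5 (E) and PKC igoni-2 (F), and the labels do not say what sharing one means. Tag sets A to D held 1 library of each of the 4 groups. Tag set E held only a repeat ibrutinib library and tag set F only a single DMSO library, so a fit with tag set as a block takes no part of the interaction from those 2 libraries, although their values are in the group means. The strain tag names wild type mice for every library, although 4 of the texts name BTK KO, and *Btk* had at most 27 counts in any library and cannot settle this. The sources do not say that the cultures of one group came from different animals. In the fit with tag set as a block, p-values therefore measure how group differences vary across tag sets A to D. Every library carried the transcripts of CD8+ T cells, with the 8 CD8 T cell markers summing to 3654 to 5471 TPM, RSEM's length-scaled share of transcripts. B cell markers summed to at most 8.07 TPM, macrophage or monocyte markers to at most 8.87, neutrophil markers to at most 6.12 and erythroid markers to at most 1.84. Other lists were higher and differed between groups. The 4 plasma cell markers summed to 16.2 to 20.8 TPM under repeat DMSO, 4.83 to 8.69 under repeat ibrutinib and at most 7.2 after single stimulation, where *Sdc1* and *Jchain* carried most of the repeat values and *Mzb1* was at most at 0.45. The 4 CD4 T cell markers summed to 16.4 to 21.4, 5.38 to 16.6 and at most 12.5, with *Zbtb7b* up to 20.7. The 5 mast cell or basophil markers reached 30.3, 31 and 7.35, of which *Kit* was up to 30.6 and the other 4 at most 1.16 each. The 4 NK cell markers summed to 4.65 to 15.8 under repeat DMSO, 6.8 to 40.8 under repeat ibrutinib, 20.8 to 38 under single DMSO and 11 to 15.6 under single ibrutinib, with *Eomes* up to 35.8, *Klrb1c* up to 25.2 and *Ncr1* at most at 1.16. The part of such cells in the results was not tested. Libraries held 23445922 to 51995372 expected counts. Fewer cells expressing a gene and less RNA per cell cannot be told apart in such bulk samples.

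Ibrutinib inhibits BTK and other Tec family kinases, which carry signals from antigen receptors to phospholipase C, calcium and ERK. A stimulated CD8+ T cell releases interferon-γ and chemokines, divides, and leaves the resting programme of TCF1 and LEF1. Interferon-γ acts back on T cells through factors such as IRF1, which raise guanylate binding proteins, other immunity GTPases and the antigen presentation machinery of MHC class I. Persistent antigen adds inhibitory receptors such as PD-1. These outputs were therefore compared gene by gene between the 2 histories of stimulation.

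Of 12255 genes tested, 679 (5.54%) had an ibrutinib effect that differed by stimulation, called where edgeR's quasi-likelihood test gave an adjusted p under 0.05, the interaction exceeded 0.2 in size and the normalized count averaged 50 or more. The interaction was positive for 545 genes (4.45%) and negative for 134 (1.09%), whereas the median over all genes was -0.01. For comparison, the drug changed 1694 genes (13.8%) in repeat peptide stimulated cells, raising 1038 (8.47%) and lowering 656 (5.35%). It changed 1114 (9.09%) in single peptide stimulated cells, raising 340 (2.77%) and lowering 774 (6.32%). Among the 679 genes, 333 were called for the drug effect after repeat stimulation and not after single stimulation, 234 after single and not after repeat, and 55 in both with opposite directions. A further 21 changed in the same direction in both, 17 of them more after single stimulation, and 36 passed in neither effect alone. Among the 545 positive genes, the fitted effects of 272 were above 0 after repeat and below 0 after single stimulation, those of 118 were above 0 in both and those of 155 below 0 in both. The median effects of the 545 genes were 0.44 on the log2 scale after repeat stimulation and -0.38 after single stimulation, and those of the 134 genes were -0.47 and 0.28. Each of tag sets A to D gave the fitted sign on its own for 537 of the 545 and 132 of the 134 genes. Taken on the linear scale of normalized counts rather than on the log2 scale, the sign held for 473 of the 545 and for all 134. Values given with an SE beside a gene are log2 interactions of this fit, and values with an SD are normalized counts.

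**Figure D1:**
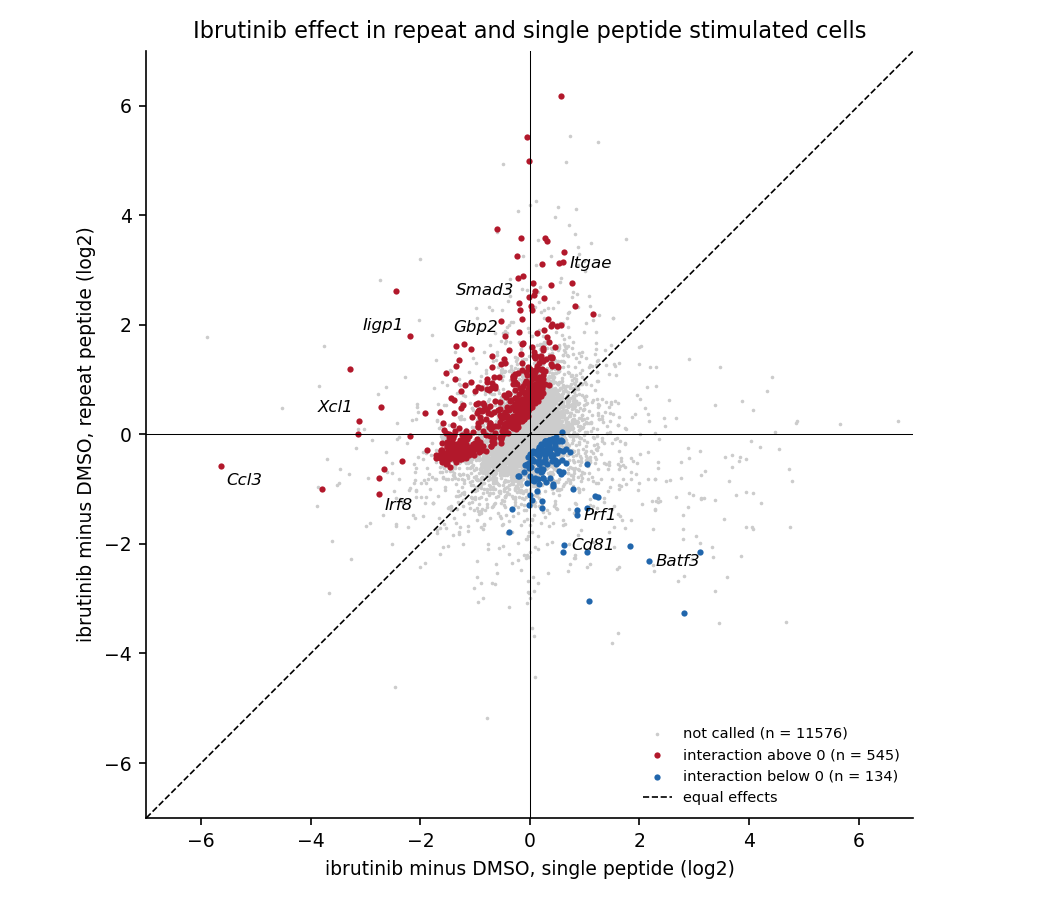
Log2 change under ibrutinib in single peptide stimulated cells (horizontal axis) against that in repeat peptide stimulated cells (vertical axis) for the genes tested, with genes of a called positive or negative interaction in colour and 2 genes outside the axes. The 545 genes above the diagonal outnumber the 134 below it, and *Gbp2* lies among the genes with a positive repeat effect and a negative single effect.

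The number of calls depended on the tag set term and on single libraries. Without the tag set term 154 genes were called, 153 of them among the 679. The count was 447 without the repeat ibrutinib library of tag set A and 449 without the single DMSO library of tag set C, and it ranged from 460 to 912 when any of the other libraries was left out. Genes called for the drug only after repeat stimulation numbered 199 without repeat ibrutinib A. Those called only after single stimulation numbered 364 without repeat DMSO B, 135 without single DMSO C, 153 without single DMSO D, 141 without single ibrutinib A and 143 without single ibrutinib D.

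The interferon-inducible GTPases had a positive interaction throughout. These are GTPases made in cells that sense interferon, and some of them attack the membranes around intracellular microbes. The interaction was positive and called for 16 of the 17 members tested, beside 4.45% of all genes, and the remaining one, *Gbp8*, had 1.08 with an edgeR adjusted p of 0.0533. After repeat stimulation 14 of the 17 rose under ibrutinib (82.4%, beside 8.47% of all genes tested), after single stimulation 14 fell (82.4%, beside 6.32%), and 13 did both. Their interactions ran from 0.56 to 3.97 with a median of 1.56, beside -0.01 over all genes tested, and all 17 were positive in each of tag sets A to D. Without the tag set term 14 were called.

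*Gbp2* had 2786, 2445, 3417 and 3463 normalized counts in the repeat DMSO libraries of tag sets A to D, against 8906, 7256, 8997 and 11780 in the repeat ibrutinib libraries and 8519 in that of tag set E. In single peptide stimulated cells the counts were 13457, 7480, 16161 and 11871 in the single DMSO libraries, 7068 in that of tag set F, and 5864, 3425, 5172 and 4589 in the single ibrutinib libraries. The repeat groups did not overlap and neither did the single groups, with the drug raising the gene in the first and lowering it in the second. The interaction of *Gbp2* (ENSMUSG00000028270, chromosome 3, 142620602 to 142638008, GRCm38) was 2.95 ± 0.185 (SE; edgeR adjusted p = 4.23e-07), from 1.61 after repeat and -1.34 after single stimulation, and single tag sets gave 2.87, 2.69, 3.04 and 3.14. *Igtp* (ENSMUSG00000078853, chromosome 11, 58199556 to 58207591), which encodes the GTPase IRGM3, had 2.09 ± 0.153 (edgeR adjusted p = 1.35e-06). *Gbp3* had 1.82 ± 0.148 and *Gbp6* 2.02 ± 0.184. The largest value in the family was that of *Iigp1*, 3.97 ± 0.375 (edgeR adjusted p = 0.000108), whose means were 720 ± 345 (SD, n = 4) and 2281 ± 777 (n = 5) normalized counts without and with ibrutinib after repeat stimulation and 4113 ± 1041 (n = 5) and 996 ± 238 (n = 4) after single stimulation.

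The interferon signalling factor *Irf1* changed in the same directions. *Irf1* had 2432, 2848, 3579 and 2430 normalized counts in the repeat DMSO libraries of tag sets A to D, against 4927, 4482, 5870 and 4426 in the repeat ibrutinib libraries and 4331 in that of tag set E. Single peptide stimulated cells had 8305, 7076, 11446 and 7466 in the single DMSO libraries, 6762 in that of tag set F, and 6073, 4617, 5462 and 4049 in the single ibrutinib libraries. The drug thus raised *Irf1*, an activator of interferon-responsive genes, after repeat stimulation and lowered it after single stimulation, with no overlap in either pair of groups and an interaction of 1.56 ± 0.144 (ENSMUSG00000018899, chromosome 11, 53770014 to 53778374; edgeR adjusted p = 1.26e-05). *Fgl2*, which encodes a fibrinogen-like protein secreted by T cells, rose from 657 ± 66.1 (SD, n = 4) to 2078 ± 539 (n = 5) after repeat stimulation and fell from 1102 ± 205 (n = 5) to 449 ± 97 (n = 4) after single stimulation, an interaction of 2.84 ± 0.209 (edgeR adjusted p = 1.35e-06). The serpins *Serpina3f* and *Serpina3g*, inhibitors of proteases, had 4.48 ± 0.453 and 2.10 ± 0.246. They are close copies in a gene cluster, so the split of reads between them is uncertain. The means of *Serpina3f* were 642 ± 359 and 74.4 ± 26.1 without and with the drug after single stimulation.

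The gene for interferon-γ fell under ibrutinib in both conditions. *Ifng* averaged 756 ± 342 normalized counts (SD, n = 4) under repeat DMSO and 219 ± 102 (n = 5) under repeat ibrutinib, and 46.1 ± 31.6 (n = 5) and 7.99 ± 6.53 (n = 4) after single stimulation. The 2 falls had edgeR adjusted p-values of 0.0125 and 0.0463, and its interaction of 0.52 ± 0.858 was not called (edgeR adjusted p = 0.815). The receptor chain *Ifngr1* rose by 0.47 after repeat stimulation, and its interaction of 0.35 ± 0.114 was not called (edgeR adjusted p = 0.0938). Of 48 interferon stimulated genes tested, 9 had a called positive interaction (18.8%, beside 4.45% of all genes tested) and none a negative one. Among the 9 was the nucleic acid sensor *Zbp1* (1.14 ± 0.143, edgeR adjusted p = 0.000221). Of the 48 genes 21 (43.8%, beside 6.32% of all genes tested) fell after single stimulation, while after repeat stimulation 6 rose (12.5%, beside 8.47%) and 9 fell (18.8%, beside 5.35%). *Isg15*, which encodes a ubiquitin-like protein, fell in both, by 0.71 and 0.92, with an interaction of 0.21 ± 0.296 that was not called (edgeR adjusted p = 0.774).

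Because these genes moved together, the stretch from 250 bases before to 50 bases after their start sites was read for short motifs on both strands (RefSeq, GRCm38.p6; 9529 of the 12255 genes tested had an entry). The letters GAAA repeated after a gap of 2 bases stand for the element bound by IRF factors (ISRE), TTCNNNGAA for that bound by STAT dimers (GAS), and TTTNNCGC for that bound by E2F. The AP-1 letters TGANTCA and the E-box CACGTG were searched too, and were in 6.65% and 9.98% of the promoters of positive genes, beside 5.83% and 11.8% for all genes tested. ISRE and GAS letters were in 9.5% and 12.1% of those 421 promoters of positive genes. A gene with several starts counts once, and a stretch can match more than 1 motif. ISRE letters were in 9 of the 10 GTPase promoters with an entry, against 3.99% of all 27025 genes with an entry and 3.82% of the genes tested, and GAS letters in 6 of 10, against 9.55% and 8.23%. Of 46 genes with a positive interaction and opposite effects, which include 13 of the GTPases, 33 had an entry, and 36.4% of these held ISRE letters, 30.3% GAS letters, 12.1% AP-1 letters and 3.03% E-box letters. The 107 promoters of genes with a negative interaction held ISRE letters at 3.74% and GAS letters at 8.41%. The promoters of 4 called genes are shown with ISRE and GAS letters in capitals and any other motif in lower case, 5′ to 3′ on the + strand, to show how the matches lie. They were chosen because they hold matches. Those of the called genes *Tap1*, *Psmb9*, *Ccl3* and *Prf1* held neither ISRE nor GAS letters. Gbp2 (chr3:142620413-142620712) has an ISRE match at positions -59 to -50 from the start site, Igtp (chr11:58199306-58199605) a GAS match at -45 to -37 and an ISRE match at -34 to -25, Irf1 (chr11:53769764-53770063, the first of 2 starts listed) a GAS match at -90 to -82 and Fgl2 (chr5:21372423-21372722) a GAS match at -36 to -28.
Gbp2: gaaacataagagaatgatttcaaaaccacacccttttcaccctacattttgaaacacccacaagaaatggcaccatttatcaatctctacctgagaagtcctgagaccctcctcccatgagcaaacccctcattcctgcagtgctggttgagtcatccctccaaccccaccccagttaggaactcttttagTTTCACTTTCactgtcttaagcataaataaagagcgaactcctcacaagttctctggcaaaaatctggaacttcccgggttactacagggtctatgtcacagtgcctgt
Igtp: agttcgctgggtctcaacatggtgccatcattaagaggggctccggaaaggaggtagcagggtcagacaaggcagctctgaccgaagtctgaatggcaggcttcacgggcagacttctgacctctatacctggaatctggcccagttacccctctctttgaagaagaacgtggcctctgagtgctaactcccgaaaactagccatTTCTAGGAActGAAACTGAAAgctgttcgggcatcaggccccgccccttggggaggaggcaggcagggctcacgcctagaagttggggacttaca
Irf1: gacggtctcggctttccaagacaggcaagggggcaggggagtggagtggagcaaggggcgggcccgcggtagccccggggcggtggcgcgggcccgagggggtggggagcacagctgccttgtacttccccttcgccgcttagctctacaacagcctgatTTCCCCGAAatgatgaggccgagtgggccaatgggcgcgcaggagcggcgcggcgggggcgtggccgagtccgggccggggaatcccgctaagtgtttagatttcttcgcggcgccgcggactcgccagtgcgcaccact
Fgl2: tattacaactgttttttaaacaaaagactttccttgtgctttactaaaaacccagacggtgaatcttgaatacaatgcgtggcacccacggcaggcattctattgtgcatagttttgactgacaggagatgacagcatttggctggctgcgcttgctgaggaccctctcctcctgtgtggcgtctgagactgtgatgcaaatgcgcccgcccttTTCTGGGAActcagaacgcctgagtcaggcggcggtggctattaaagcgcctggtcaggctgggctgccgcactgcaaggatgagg
A match describes these letters only, and binding was not measured.

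The MHC class I presentation genes had the same direction at a smaller size. Of 20 members tested, 14 had a called positive interaction (70%, beside 4.45% of all genes tested) and none a negative one. Values ran from 0.33 to 0.96 with a median of 0.52 over the 20. All 20 were positive in each of tag sets A to D. After repeat stimulation 9 rose under ibrutinib (45%, beside 8.47% of all genes tested), and after single stimulation 12 fell (60%, beside 6.32%). *H2-T22*, a non-classical class I gene, had 4525, 4352, 5863 and 5400 normalized counts under repeat DMSO and 5531, 5143, 6499 and 6714 under repeat ibrutinib in tag sets A to D, with 7605 in E. After single stimulation it had 6925, 7001, 8993 and 9954 under DMSO, 8073 in F, and 6051, 5761, 7482 and 6969 under ibrutinib. Both pairs of groups overlapped in level, while the difference within each tag set held its sign, and the interaction was 0.56 ± 0.0956 (edgeR adjusted p = 0.00241).

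*Tap1*, a chain of the peptide transporter, fell by 0.48 after single stimulation and had 0.10 after repeat stimulation, an interaction of 0.58 ± 0.131 (edgeR adjusted p = 0.0154). The immunoproteasome subunit *Psmb9* had 0.49 ± 0.114 (edgeR adjusted p = 0.0182) and *Nlrc5*, the transactivator of class I genes, 0.82 ± 0.15 (edgeR adjusted p = 0.00391). For *B2m*, the shared light chain, the interaction of 0.33 ± 0.158 was not called (edgeR adjusted p = 0.276). Without the tag set term 3 of the 20 were called, and none passed an absolute interaction above 1. ISRE letters were in 5 of the 16 promoters of this list with an entry (31.2%, beside 3.82% of the genes tested). GAS letters were in 1 of the 16 (6.25%, beside 8.23%).

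**Figure D2:**
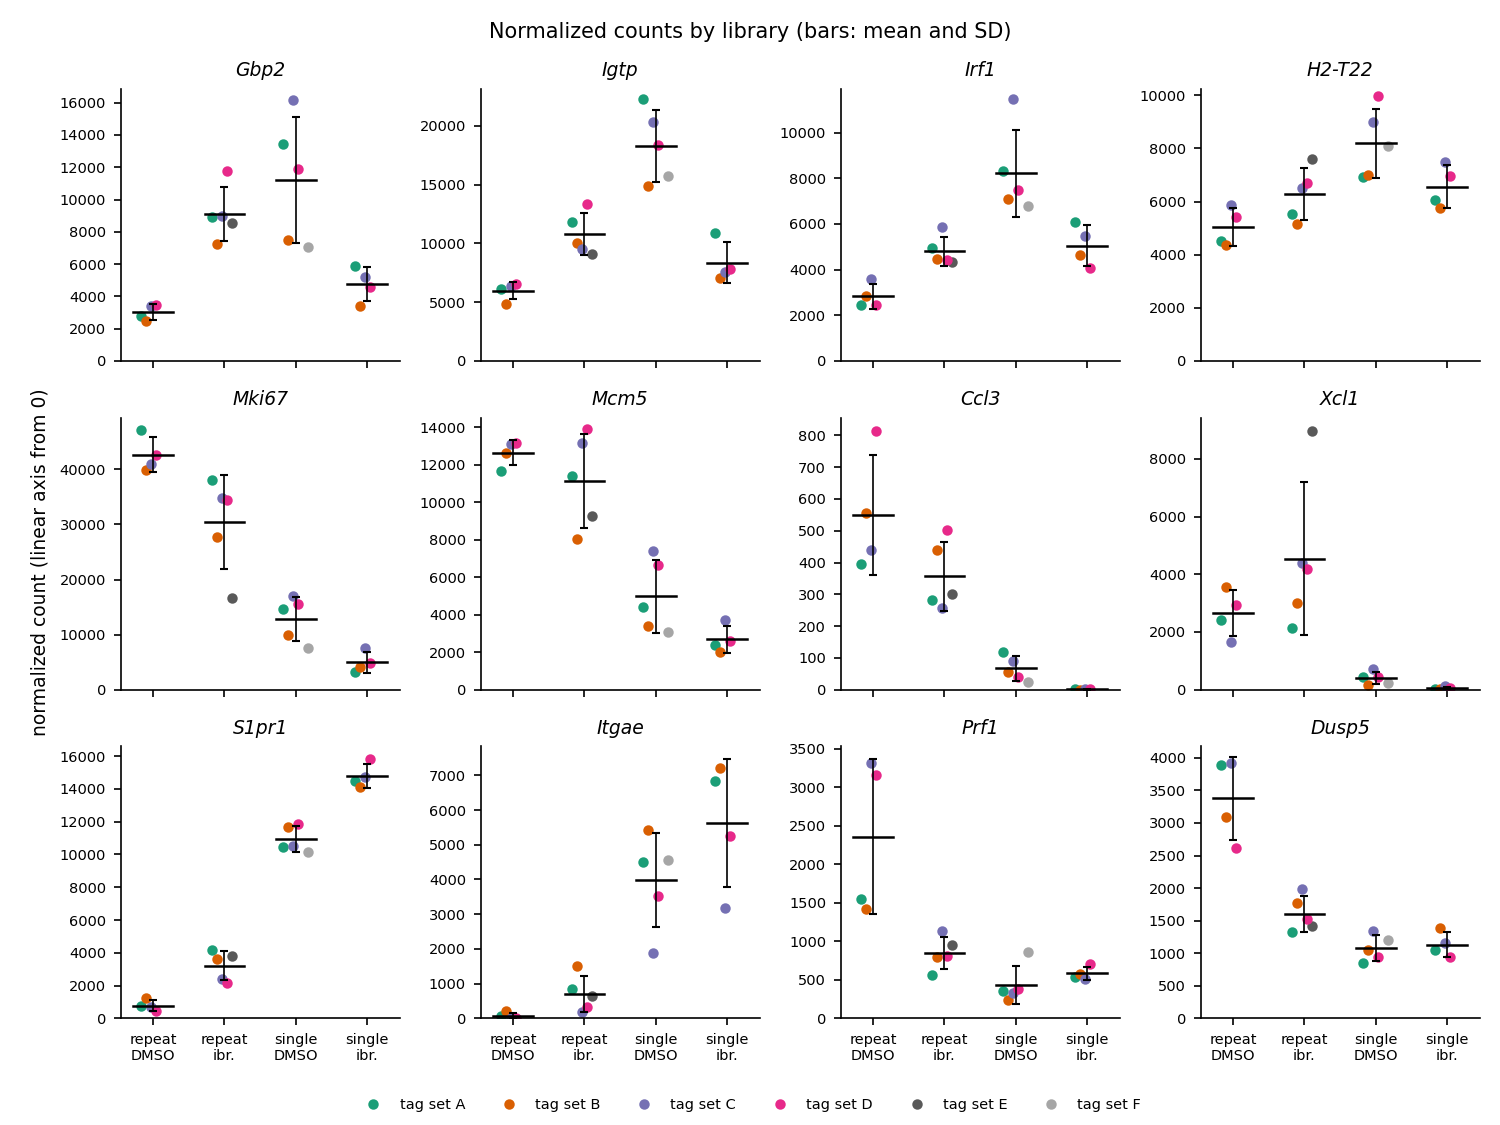
Normalized counts of 12 genes in every library, by group (points, coloured by tag set; bars, mean ± SD; linear axes from 0). *Gbp2*, *Igtp* and *Irf1* are higher with ibrutinib after repeat stimulation and lower after single stimulation, while *Mki67* and *Mcm5* have their lowest values in the single ibrutinib libraries.

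Genes of DNA replication and mitosis fell under ibrutinib mainly in single peptide stimulated cells. Of the 45 tested, 40 fell after single stimulation (88.9%, beside 6.32% of all genes tested), where the median effect was -1.14. After repeat stimulation 7 fell (15.6%, beside 5.35%) and 1 rose (2.22%, beside 8.47%), with a median of -0.36. The share that fell was thus above that of all genes in both conditions. The interaction was positive in the fit for 44 of the 45 and called for 17 (37.8%, beside 4.45%), none was called negative, and 27 had one sign in tag sets A to D. The one negative value was that of *Cdkn1a*, the cell cycle inhibitor p21, at -1.76, and it was not called (edgeR adjusted p = 0.13).

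*Mki67* had 47181, 39957, 40937 and 42595 normalized counts in the repeat DMSO libraries of tag sets A to D, against 38147, 27792, 34897 and 34523 in the repeat ibrutinib libraries and 16670 in that of tag set E. In single peptide stimulated cells *Mki67*, a marker of dividing cells, had 14592, 9858, 16938 and 15539 in the single DMSO libraries, 7516 in that of tag set F, and 3219, 4185, 7638 and 4866 in the single ibrutinib libraries. Apart from repeat ibrutinib E, every repeat library was above every single library, and the single groups overlapped by 1 library. The interaction was 1.18 ± 0.245 (edgeR adjusted p = 0.0111), from -0.35 after repeat and -1.53 after single stimulation. *Top2a*, the topoisomerase of dividing cells, had 1.15 ± 0.229 (edgeR adjusted p = 0.00792). *Mcm5*, a subunit of the replicative helicase (ENSMUSG00000005410, chromosome 8, 75109569 to 75128439), averaged 12651 ± 671 (SD, n = 4) and 11165 ± 2509 (n = 5) after repeat stimulation and 4981 ± 1949 (n = 5) and 2680 ± 725 (n = 4) after single stimulation, an interaction of 0.84 ± 0.197 (edgeR adjusted p = 0.0196). That call was lost without single DMSO C or single DMSO D, where the adjusted p reached 0.056. The kinase *Cdk1* had 0.75 ± 0.263, which was not called (edgeR adjusted p = 0.126).

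The count of 17 depended on the setting. It was 0 without the tag set term and 1 without tag set D. Leaving out 1 library gave 35 without repeat DMSO B, 31 without single DMSO B and 30 without single ibrutinib C. It gave 11 without repeat DMSO C, repeat DMSO D, repeat ibrutinib A, single ibrutinib A or single ibrutinib D, 10 without repeat ibrutinib D or single DMSO D and 8 without single DMSO C. E2F letters were in 10 of the 36 promoters of this list with an entry, 27.8% beside 5.93% of all genes with an entry and 10.1% of the genes tested. The promoter of *Rrm2*, a called gene of the same list, held no E2F letters. The promoter of Mcm5 (chr8:75109259-75109558, + strand) is shown as an example of a match, with 2 matches, which overlap, at -153 to -146 and -149 to -142 in capitals.
Mcm5: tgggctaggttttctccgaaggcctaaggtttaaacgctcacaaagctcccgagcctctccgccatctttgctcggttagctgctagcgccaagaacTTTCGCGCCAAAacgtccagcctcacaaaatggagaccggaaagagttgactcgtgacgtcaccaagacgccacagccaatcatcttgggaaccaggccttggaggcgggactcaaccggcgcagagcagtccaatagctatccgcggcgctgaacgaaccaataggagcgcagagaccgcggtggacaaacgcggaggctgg
The capitals mark E2F letters only, and binding by E2F was not measured.

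Of 7 chemokines tested, *Ccl3*, *Ccl4* and *Xcl1* had a called positive interaction (42.9%, beside 4.45% of all genes tested), and none a negative one. All 3 fell under ibrutinib after single stimulation (42.9% of the list, beside 6.32%) and were not called after repeat stimulation. *Ccl3* had 394, 555, 439 and 815 normalized counts in the repeat DMSO libraries of tag sets A to D, against 281, 441, 256 and 502 in the repeat ibrutinib libraries and 301 in that of tag set E. After single stimulation it had 119, 56.2, 91.8 and 40.7 in the single DMSO libraries, 25.6 in that of tag set F, and 0.948, 0, 2.78 and 2.05 in the single ibrutinib libraries. *Ccl3*, an inflammatory chemokine, was thus present in every repeat library and at most at 2.78 in the single ibrutinib libraries, each of which had 3 counts or fewer, so its fitted interaction of 5.07 (edgeR adjusted p = 0.00126) depends on the prior count. In normalized counts rather than on the log2 scale the drop was larger after repeat stimulation, by 105.

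*Ccl4* had 3.14 ± 0.618 (edgeR adjusted p = 0.00842) and means of 403 ± 114 and 446 ± 129 after repeat stimulation. After single stimulation its means were 58.8 ± 28 and 7.09 ± 5.53, with only 1 to 14 counts in the single ibrutinib libraries. Among the libraries of A to D, its call was lost without tag set A and without D (edgeR adjusted p up to 0.0613). *Xcl1*, which attracts cross-presenting dendritic cells, averaged 2652 ± 809 (SD, n = 4) and 4538 ± 2645 (n = 5) after repeat stimulation and 401 ± 208 (n = 5) and 51.3 ± 44.7 (n = 4) after single stimulation, an interaction of 3.38 ± 0.683 (edgeR adjusted p = 0.0175). The call of *Xcl1* was lost in limma-voom (adjusted p = 0.0544) and, among the libraries of A to D, without tag set D (edgeR adjusted p = 0.132). *Ccl5* rose by 0.80 after repeat stimulation, and its interaction of 0.68 ± 0.306 was not called (edgeR adjusted p = 0.254). *Ccl1* and *Cxcl10* passed the adjusted p but not the minimum mean count.

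Of 11 effector cytokines tested, *Tnf*, *Ltb*, *Lif* and *Osm* had a called positive interaction (36.4%, beside 4.45% of all genes tested). The call of *Ltb* was lost without the tag set term and in 11 of the 18 fits that left out 1 library (edgeR adjusted p up to 0.0975). *Lif*, a cytokine of the IL-6 family, had 252, 99.7, 437 and 392 normalized counts under repeat DMSO and 99.5, 29.6, 312 and 217 under repeat ibrutinib in tag sets A to D, with 101 in E. After single stimulation it had 130, 118, 535 and 113 under DMSO, 125 in F, and 8.53, 10.3, 21.3 and 19.5 under ibrutinib, groups that did not overlap, whereas the repeat groups did. Its interaction was 2.80 ± 0.54 (edgeR adjusted p = 0.00633) and was not called without the tag set term. *Osm*, a related cytokine, rose by 0.84 after repeat and fell by 0.90 after single stimulation (1.75 ± 0.239; edgeR adjusted p = 0.000526). *Tnf* had 1.15 ± 0.29 (edgeR adjusted p = 0.0279), a call lost in 7 of the 18 fits that left out 1 library, where the adjusted p was at most 0.0704.

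*Irf8*, a transcription factor that T cells induce on activation, fell in both conditions but further after single stimulation. *Irf8* had 3348, 3177, 4018 and 4542 normalized counts in the repeat DMSO libraries of tag sets A to D, against 1364, 1461, 2230 and 2097 in the repeat ibrutinib libraries and 2141 in that of tag set E. After single stimulation it had 592, 262, 672 and 398 in the single DMSO libraries, 700 in that of tag set F, and 78.7, 48.7, 91.8 and 59.6 in the single ibrutinib libraries. No group overlapped another, and the interaction was 1.66 ± 0.272 (edgeR adjusted p = 0.00247), from -1.09 and -2.76. On the linear scale the direction turned, with a drop larger by 1572 normalized counts after repeat stimulation. *Tbx21*, which encodes T-bet, fell by 0.64 after single stimulation and had 0.02 after repeat stimulation (0.66 ± 0.157; edgeR adjusted p = 0.02), a call lost without repeat ibrutinib D, single DMSO C or single ibrutinib A (adjusted p up to 0.0589). *Slamf7*, a receptor of activated lymphocytes, had 1.43 ± 0.204 (edgeR adjusted p = 0.00064), rising by 0.57 after repeat and falling by 0.86 after single stimulation.

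Of the 545 positive genes, 254 were called for the drug after repeat and not after single stimulation, and these included genes of resting T cells, homing and adhesion. Of 17 stem-like and memory factors tested, 5 had a called positive interaction (29.4%, beside 4.45% of all genes tested), among them *Tcf7*, *Lef1*, *Klf3* and *S1pr1*, and none a negative one. In the list 9 genes rose after repeat stimulation (52.9%, beside 8.47%) and 3 after single stimulation (17.6%, beside 2.77%), and its median interaction was 0.17. *S1pr1* had 742, 1227, 669 and 435 normalized counts in the repeat DMSO libraries of tag sets A to D, against 4165, 3615, 2377 and 2171 in the repeat ibrutinib libraries and 3782 in that of tag set E. After single stimulation it had 10450, 11700, 10525 and 11876 in the single DMSO libraries, 10122 in that of tag set F, and 14474, 14117, 14711 and 15818 in the single ibrutinib libraries. The repeat groups did not overlap and neither did the single groups, with every single ibrutinib value above every single DMSO value. Every repeat ibrutinib value stayed below every single DMSO value. The interaction of *S1pr1*, the receptor that guides T cells out of lymph nodes, was 1.60 ± 0.313 (edgeR adjusted p = 0.0103), from 2.02 and 0.41. In normalized counts the rise was smaller after repeat stimulation, with a difference of -1329.

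*Klf3*, a repressor of the Krüppel-like family, had 1.65 ± 0.237 (edgeR adjusted p = 0.000969) and likewise turned on the linear scale, to -61.1 normalized counts. *Tcf7*, which encodes TCF1, had 0.69 ± 0.19 (edgeR adjusted p = 0.0421), and *Lef1* had 0.55 ± 0.151 (edgeR adjusted p = 0.0413). Those 2 calls were lost in 11 and 10 of the 18 fits that left out 1 library, with adjusted p up to 0.0985 and 0.0967. The count of 5 for the list was 3 without the tag set term. It was 2 without repeat ibrutinib A or D, single DMSO D or single ibrutinib A or C, and 3 without repeat DMSO A or D, repeat ibrutinib C, single DMSO B or C or single ibrutinib D.

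Of 30 adhesion and cytoskeleton genes tested, 8 had a called positive interaction (26.7%, beside 4.45% of all genes tested) and 1 a called negative one (3.33%, beside 1.09%). Of 32 cytokine receptors and feedback genes the counts were 8 (25%) and 1 (3.12%). *Itgae*, which encodes CD103 and pairs with the β7 chain, had 74.4, 205, 15 and 25.6 normalized counts under repeat DMSO and 855, 1497, 194 and 316 under repeat ibrutinib in tag sets A to D, with 657 in E. After single stimulation it had 4491, 5434, 1879 and 3531 under DMSO, 4547 in F, and 6835, 7213, 3175 and 5263 under ibrutinib. Both pairs of groups overlapped, while each tag set gave a positive interaction. The fitted value was 2.54 ± 0.513 (edgeR adjusted p = 0.0159), which was not called without the tag set term and was -1153 on the linear scale. Among the libraries of A to D, the call of *Itgae* was also lost without tag set A, C or D. Its adjusted p ranged up to 0.163 over the fits tried. *Itgb7*, its partner, had 1.07 ± 0.177 (edgeR adjusted p = 0.00198).

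*Smad3*, a transducer of TGF-β signals, rose by 2.39 after repeat stimulation and had -0.19 after single stimulation (2.58 ± 0.304; edgeR adjusted p = 0.000242). It was the single call among 18 genes of the TGF-β pathway tested (5.56%, beside 5.54% of all genes). *Il4ra*, the α chain of the IL-4 receptor, had 0.95 ± 0.121 (edgeR adjusted p = 0.000244). *Il6ra*, that of the IL-6 receptor, had 2.23 ± 0.351 (edgeR adjusted p = 0.00295) with means of 116 ± 41.7 and 687 ± 238 after repeat stimulation, and -335 on the linear scale. *Pou6f1*, which encodes a POU domain factor, had 2.54 ± 0.227 (edgeR adjusted p = 1.28e-05), from 2.62 and 0.09.

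The largest fitted positive values belonged in part to genes at or near 0 under repeat DMSO. *Kirrel*, which encodes an adhesion protein of the immunoglobulin superfamily, had 1 count over the 4 repeat DMSO libraries together. In the repeat ibrutinib libraries it had at most 19 counts in any library, with a mean of 10.6 ± 10.9 (SD, n = 5) normalized counts. It had 910, 884, 540 and 755 normalized counts in the single DMSO libraries of tag sets A to D, with 302 in F. In the single ibrutinib libraries of A to D it had 890, 996, 492 and 722. The call of *Kirrel* was lost without the tag set term. *Sorcs2*, which encodes a sorting receptor, had at most 2 counts in any repeat DMSO library. In the repeat ibrutinib libraries it had at most 45 counts in any library, with a mean of 29.2 ± 14.7 (SD, n = 5) normalized counts. Of the called genes, 10 had a group with 3 counts or fewer in every library, 6 with a positive and 4 with a negative interaction, and without them the medians of the called genes were 0.93 and -0.66, beside 0.94 and -0.71 with them. *Foxp3*, the factor of regulatory T cells, averaged 3.01 ± 2.89 (SD, n = 4) and 32.5 ± 26.1 (n = 5) normalized counts after repeat stimulation and 163 ± 184 (n = 5) and 253 ± 316 (n = 4) after single stimulation, where tag set B held the highest values of both groups. Its interaction was 3.30 ± 0.615 (edgeR adjusted p = 0.00459), not called without the tag set term and -32.9 on the linear scale. *Cd4* was at most at 0.17 TPM in any library.

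**Figure D3:**
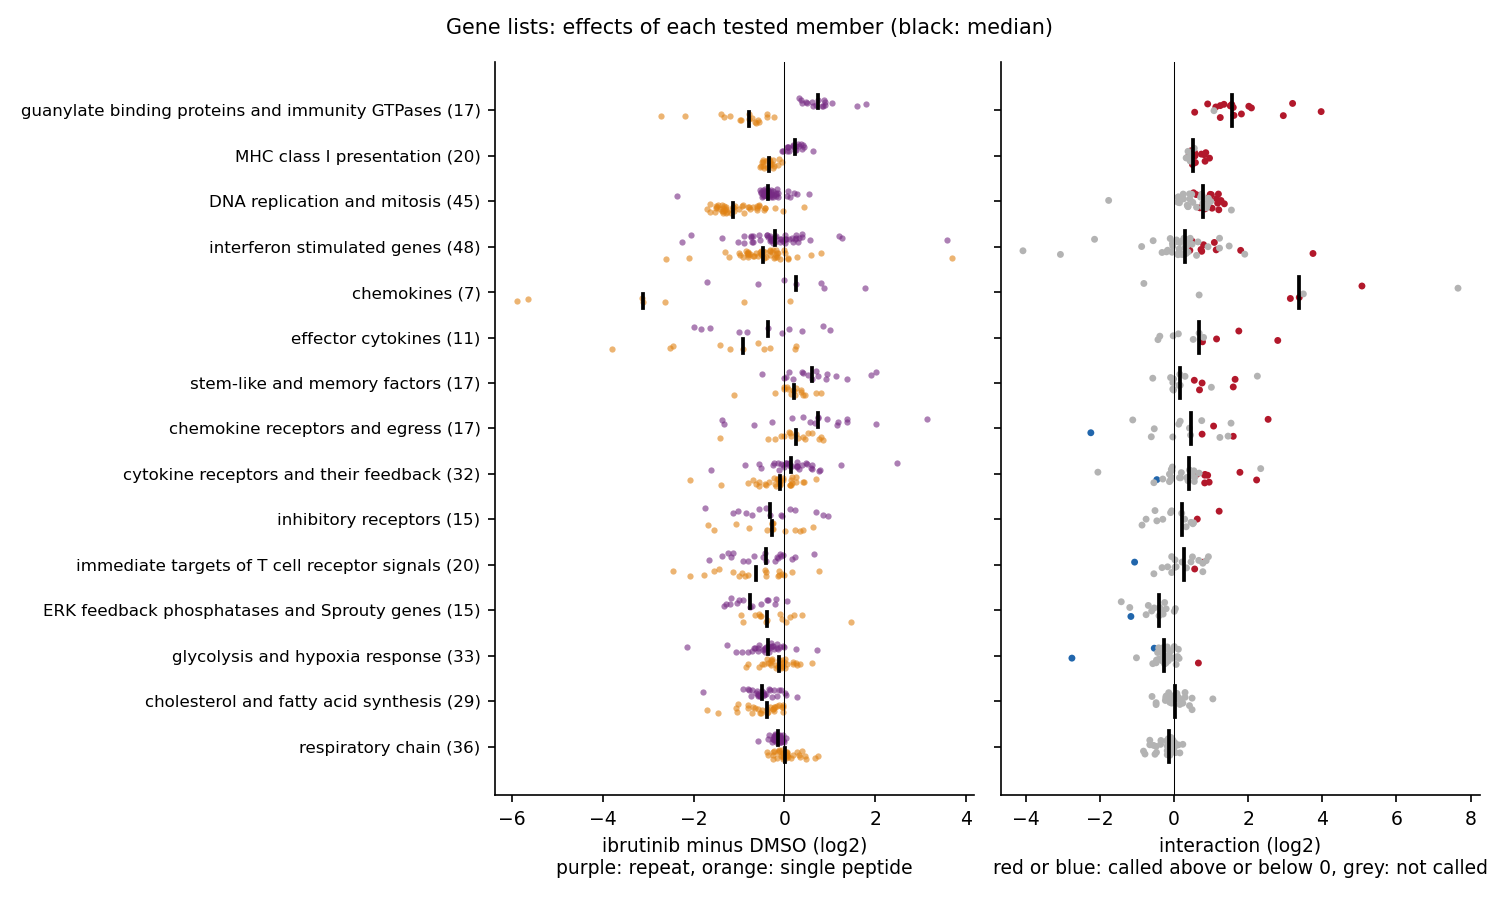
Log2 changes for the tested members of 15 gene lists, with the ibrutinib effect after repeat (purple) and single (orange) stimulation on the left and the interaction on the right. The GTPase list has a median interaction of 1.56 with positive repeat and negative single effects, and the replication and mitosis list a median of 0.79 with a median single effect of -1.14.

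Of the 134 genes with a negative interaction, 119 had fitted effects below 0 after repeat and above 0 after single stimulation. For the drug effects themselves 79 were called only after repeat stimulation, 31 only after single stimulation and 9 in both with opposite directions. Their number was 26 without the tag set term and moved with single libraries, to 62 without repeat ibrutinib A, 82 without repeat ibrutinib B, 89 without repeat ibrutinib D, 79 without single DMSO C, 67 without single ibrutinib A and 76 without single ibrutinib D. *Prf1* had 1554, 1419, 3307 and 3152 normalized counts in the repeat DMSO libraries of tag sets A to D, against 569, 792, 1128 and 806 in the repeat ibrutinib libraries and 956 in that of tag set E. After single stimulation it had 355, 234, 324 and 387 in the single DMSO libraries, 863 in that of tag set F, and 539, 574, 510 and 708 in the single ibrutinib libraries. The repeat groups did not overlap. Within tag sets A to D the single ibrutinib library was above its DMSO partner, but tag set F alone exceeded all of them. The interaction of *Prf1*, which encodes perforin, the pore-forming protein of cytotoxic granules, was -2.33 ± 0.303 (ENSMUSG00000037202, chromosome 10, 61297833 to 61304680; edgeR adjusted p = 0.000589), from -1.47 and 0.86, and single tag sets gave -2.05, -2.13, -2.20 and -2.83. Of 19 genes for granzymes, perforin and serpins tested, 2 had a called positive interaction (10.5%, beside 4.45% of all genes tested), both of the Serpina3 cluster. A negative one was called for 3 (15.8%, beside 1.09%).

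*Tspan32*, a tetraspanin of blood cells, fell by 0.55 after repeat stimulation and rose by 1.04 after single stimulation (-1.60 ± 0.19; edgeR adjusted p = 0.000129), a call lost without the tag set term. *Adgre5*, which encodes the adhesion receptor CD97, had -0.79 ± 0.122 (edgeR adjusted p = 0.00113), *Asph*, an aspartate hydroxylase, -1.79 ± 0.266 (edgeR adjusted p = 0.000888) and *Pik3r2*, a regulatory subunit of PI3K, -2.32 ± 0.411 (edgeR adjusted p = 0.0039). All 3 fell after repeat and rose after single stimulation. The call of *Asph* was lost with an offset for effective length, at -1.13 (edgeR adjusted p = 0.0904). *Asph* averaged 485 ± 101 (SD, n = 4) and 220 ± 61.3 (n = 5) normalized counts after repeat stimulation and 30.3 ± 10.5 (n = 5) and 45 ± 5.12 (n = 4) after single stimulation.

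*Dusp5*, a nuclear phosphatase that ERK signals induce and that acts on ERK, had 3894, 3088, 3919 and 2619 normalized counts under repeat DMSO and 1327, 1771, 1993 and 1519 under repeat ibrutinib in tag sets A to D, with 1420 in E. After single stimulation it had 854, 1043, 1346 and 939 under DMSO, 1203 in F, and 1054, 1383, 1154 and 942 under ibrutinib. The repeat groups were apart and the single groups overlapped, and the interaction was -1.16 ± 0.176 (edgeR adjusted p = 0.00104). Of the 15 ERK feedback genes tested *Dusp5* was the one called (6.67%, beside 5.54% of all genes tested), a share near that of all genes. After repeat stimulation 8 of the 15 fell (53.3%, beside 5.35%), and none was called after single stimulation. The median interaction of the list was -0.40. *Rbpj*, the DNA-binding partner of Notch, had -0.93 ± 0.169 (edgeR adjusted p = 0.00398), the costimulatory receptor *Icos* -0.65 ± 0.143 (edgeR adjusted p = 0.0133), *Cd200*, the ligand of an inhibitory receptor, -1.06 ± 0.235 (edgeR adjusted p = 0.0136; not called without the tag set term), and the peroxisomal transporter *Abcd3* -1.10 ± 0.149 (edgeR adjusted p = 0.000487). These 4 fell after repeat stimulation and were not called after single stimulation.

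*Cd81*, a tetraspanin, averaged 701 ± 345 (SD, n = 4) and 190 ± 167 (n = 5) normalized counts after repeat stimulation and 14.2 ± 13.8 (n = 5) and 25.2 ± 15.4 (n = 4) after single stimulation, with an interaction of -2.65 ± 0.466 (edgeR adjusted p = 0.00311). *Batf3*, an AP-1 partner of activated T cells and dendritic cells, fell by 2.31 after repeat stimulation, from 298, 378, 511 and 1124 to 43.7, 41, 125 and 386 normalized counts in tag sets A to D, with 15.5 in E. It had at most 1.85 in the single DMSO and 14.4 in the single ibrutinib libraries, so its fitted interaction of -4.48 (edgeR adjusted p = 0.0073) depends on the prior count, and the call was lost without single DMSO D or single ibrutinib D (adjusted p up to 0.0732). Neither of the last 2 calls held without the tag set term. The summed dendritic cell markers were 34.1 to 107 TPM under repeat DMSO, 2.23 to 33.8 under repeat ibrutinib and at most 1.83 after single stimulation, of which *Batf3* was 33.4 to 105, 0.94 to 32.9 and at most 0.97. *Zbtb46* was 0.43 to 2.31 TPM under repeat DMSO, 0.24 to 0.73 under repeat ibrutinib and at most 0.2 after single stimulation. *Itgax* was at most at 4.08 TPM, in repeat ibrutinib B, and reached 1.63 in single DMSO F. In the same list *Flt3* was at most at 0.11 TPM, *Xcr1* at 0.04, *Siglech* at 0.02 and *Clec9a* at 0.01. The part of dendritic cells in these values was not tested.

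Of the 15 inhibitory receptors tested, *Lair1* and *Nt5e* had a called interaction (13.3%, beside 5.54% of all genes tested), both positive, and these calls were lost without the tag set term and in 7 and 2 of the 18 fits that left out 1 library (adjusted p up to 0.079 and 0.0653). *Pdcd1*, which encodes PD-1, had 8082, 10986, 8440 and 12292 normalized counts under repeat DMSO and 3574, 4657, 4161 and 5649 under repeat ibrutinib in tag sets A to D, with 4090 in E. After single stimulation it had 197, 137, 135 and 187 under DMSO, 148 in F, and 116, 174, 151 and 96.5 under ibrutinib. The drug lowered it after repeat stimulation, while the single values overlapped, and the interaction of -0.86 ± 0.256 missed the threshold in edgeR (adjusted p = 0.0688) and passed in limma-voom (adjusted p = 0.0338). It also passed in DESeq2, without tag set D among the libraries of A to D, and without single DMSO A or single ibrutinib D. Over the fits tried the value ran from -1.06 to -0.59 and the adjusted p from 0.00705 to 0.319. *Lag3* averaged 8194 ± 785 and 4299 ± 926 after repeat and 404 ± 112 and 177 ± 53.4 after single stimulation, and fell in both.

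For the genes not called, limma-voom gave intervals for the interaction. *Lag3* had 0.19 (95% interval -0.25 to 0.63), *Tigit* 0.56 (95% interval -0.07 to 1.19) and *Cd160* 0.48 (95% interval -0.04 to 1.00). The intervals were wide for *Havcr2*, which encodes TIM-3, at -0.82 (95% interval -3.35 to 1.72) and for *Cd244a* at -0.22 (95% interval -1.58 to 1.14). Among transcription factors, *Tox* had -0.06 (95% interval -0.53 to 0.40), *Irf4* -0.15 (95% interval -0.65 to 0.34), *Batf* 0.31 (95% interval -0.10 to 0.73) and *Nfatc1* -0.26 (95% interval -0.47 to -0.06). *Eomes* had 2.09 (95% interval 0.55 to 3.64), with an edgeR adjusted p of 0.0812. It was called without the tag set term (2.56; edgeR adjusted p = 0.0468), in DESeq2 (2.26; adjusted p = 0.0104), in edgeR without robust estimation (2.25; adjusted p = 0.0224), without tag set B among the libraries of A to D (2.09; edgeR adjusted p = 0.000247) and without single DMSO B (edgeR adjusted p = 0.0147), and the adjusted p ranged up to 0.249 over the fits tried. *Tox*, *Irf4* and *Tigit* fell under ibrutinib in both conditions.

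Of the Tec family kinases described here, *Txk* was called: it had 527, 862, 502 and 334 normalized counts in the repeat DMSO libraries of tag sets A to D, against 1390, 1828, 958 and 846 in the repeat ibrutinib libraries and 1486 in that of tag set E. After single stimulation *Txk* had 4502, 5013, 3558 and 3899 in the single DMSO libraries, 5092 in that of tag set F, and 3374, 4989, 3119 and 3878 in the single ibrutinib libraries. It rose after repeat stimulation, to values below every single library, and its interaction was 1.32 ± 0.206 (edgeR adjusted p = 0.00145). *Tec* was not called and had an interaction of -0.04 (95% interval -0.36 to 0.29) in limma-voom. *Bmx* had at most 4 counts in any library.

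Signalling and metabolic lists held 0 to 3 calls each, beside 5.54% of all genes tested. There were 2 positive calls among 26 proximal T cell receptor signalling genes (7.69%), 2 among 17 genes of calcium, calcineurin and NFAT (11.8%), 1 among 15 NF-κB genes (6.67%) and 2 with 1 negative among 20 immediate targets of T cell receptor signals (15%). None was called among 29 genes of cholesterol and fatty acid synthesis, 12 killer lectin-like receptors, 17 heat shock chaperones or 36 respiratory chain genes. Of the cholesterol and fatty acid genes 7 fell in each condition (24.1%, beside 5.35% of all genes tested after repeat and 6.32% after single stimulation). Of 33 genes of glycolysis and the hypoxia response, 1 had a positive and 2 a negative interaction (9.09% in all). After repeat stimulation 12 of the 33 fell (36.4%, beside 5.35%), and after single stimulation 1 fell (3.03%, beside 6.32%).

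**Figure D4:**
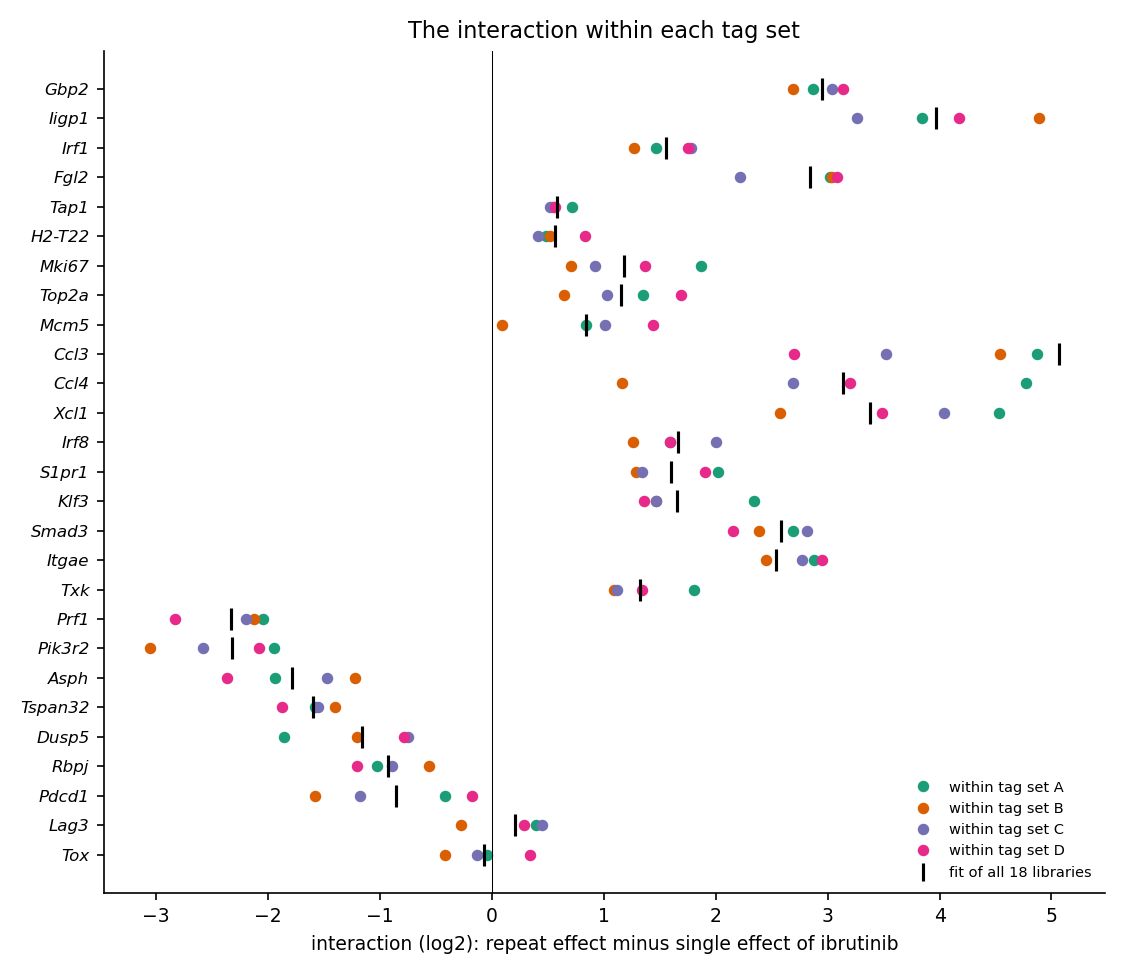
Interaction of named genes within each of tag sets A to D (points; difference of differences of log2 of the normalized count + 2) beside the fitted interaction (tick). The 4 tag sets gave *Gbp2* values of 2.69 to 3.14 and *Prf1* values below 0, and points spread more widely for genes with low counts.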

How the data were processed

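RNA was sequenced from 18 cultures of OT-I CD8+ T cells, 4 to 5 in each of 4 groups. The authors made poly-A selected, directional libraries, and the deposited tables give each gene's expected count and TPM per library as estimated by RSEM 1.3.1, on GRCm38. The submitters' processing notes also name Trim Galore and SAMtools 1.10, with R 4.0.3 and DESeq2 1.30.0. RSEM shares reads that match several genes among them, so counts of close copies are less certain. TPM was used here for cell type markers only.

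Of the 45706 genes listed, 27903 protein-coding and lncRNA genes, with 98.5% of the counts, were kept. Expected counts were rounded, scaled by TMM, filtered by edgeR's filterByExpr (12255 genes left) and fitted with edgeR 4.0.16 (R 4.3.3) by robust quasi-likelihood, with the 4 groups and the tag set as terms and 9 residual degrees of freedom. P-values were adjusted by the Benjamini-Hochberg method over all genes tested. A normalized count is a count scaled to the mean effective library size of 29285633. SEs were derived from the log2 value and its F statistic. Intervals came from limma 3.58.1 (voom), and DESeq2 1.42.0 was an alternative.

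The tag set term follows the genotype text in the labels. Deviations of libraries from their group mean correlated at 0.237 to 0.679 in the 24 pairs of the same tag set, with a median of 0.483. In 97 other pairs they correlated at -0.6 to 0.556, with a median of -0.121 and 16 pairs above 0.1, so the ranges overlapped. Libraries of 1 tag set were treated as paired. Libraries of 23445922 to 51995372 counts (median 27420966) limit precision for genes of few counts. Genes were named if they had the 12 largest or most significant interactions in each direction with 1 sign in tag sets A to D, or were called members of the lists, with the Tec kinases and the genes the study followed added. *Ifng*, *Ifngr1*, *Isg15*, *Ccl5*, *B2m*, *Cdk1*, *Cdkn1a*, *Gbp8*, *Ccl1* and *Cxcl10* are list members named after their values were seen. Some genes of the lists are not reported here. Members, lists and thresholds were chosen with earlier results of these data known. The test was checked on simulated data. Promoter sequences are from RefSeq (GRCm38.p6), and binding was not measured.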

Additional observations from a re-analysis of the deposited data

Results flagged for a closer look

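The ibrutinib effect differed between repeat and single peptide stimulated cells for 679 genes in edgeR's test of the interaction, and 55 of them were called in both conditions with opposite directions.

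Over 28 of the named genes, 112 groups were examined for a library apart from the others of its group, and 6 such libraries (5.36% of the groups) were found, where chance flags about 1 group in 20. Tag set B held the highest single DMSO value of *Foxp3* at 490 normalized counts and the highest single ibrutinib value at 726. *Iigp1* was high in repeat ibrutinib D at 3632, *Lif* in single DMSO C at 535 and *Prf1* in single DMSO F at 863. *Kirrel* was at 0.749 in repeat DMSO C, which was 1 count, and at 0 in the other repeat DMSO libraries.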

How the results depend on the processing

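Of the named genes called for the interaction, none changed sign in another fit, though some turned on the linear scale, but low counts and few tag sets limit the calls. Depth limits *Havcr2*, *Ifng*, *Kirrel*, *Batf3* and *Ccl3*, which had groups of few counts. Without the tag set as a replicate block, 154 genes were called (128 higher, 26 lower), with 726 for the drug after repeat and 373 after single stimulation. In that fit 101 were called only after repeat stimulation, 32 only after single stimulation and 12 in opposite directions, with 3 MHC class I genes, 0 replication and mitosis genes and 3 stem-like factors. Without a minimum mean count 5 chemokines were called. With an absolute value above 1 the counts were 287 (249 higher, 38 lower), 282 after repeat and 265 after single stimulation, 107 only after repeat, 108 only after single and 9 opposite, with 0 MHC class I genes, 9 replication genes and 2 stem-like factors. DESeq2's Wald test called 1025 genes, 216 of them lower, with 31 replication genes. With an offset for effective length 443 were called, 78 of them lower and 216 only after repeat, with 2 stem-like factors.

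Leaving out whole tag sets, with A to D alone as the start, cut the counts, and fewer samples enter these fits. Without A they were 248 (214 higher, 34 lower), 826 after repeat and 605 after single stimulation, 130 only after repeat, 76 only after single and 26 opposite, with 8 MHC class I genes, 6 replication genes and 2 stem-like factors. Without B 32 replication genes were called. Without C they were 435, 50 of them lower, 586 after single stimulation, 211 only after repeat and 147 only after single, with 8 MHC class I genes and 1 stem-like factor. Without D they were 251 (219 higher, 32 lower), 1054 after repeat and 527 after single stimulation, 155 only after repeat, 56 only after single and 29 opposite, with 6 MHC class I genes, 1 replication gene, 2 stem-like factors and 1 chemokine. Leaving out each library in turn gave 447 to 912 genes for the interaction, 370 to 730 higher and 62 to 182 lower, 945 to 1957 after repeat and 605 to 1410 after single stimulation, 199 to 414 only after repeat, 135 to 364 only after single and 37 to 65 opposite. It gave 14 to 17 GTPases, 11 to 16 MHC class I genes, 8 to 35 replication genes and 2 to 5 stem-like factors, and 3 chemokines each time.

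With the length offset the calls of *Psmb9*, *Tnf*, *Lif*, *Tcf7*, *Lef1*, *Cd200*, *Asph*, *Ltb* and *Lair1* were lost, and in limma-voom those of *Xcl1* and *Lair1*. Interactions that were not called changed sign in some fits. *Havcr2* had 0.43 without the replicate block, 0.04 in DESeq2, 0.48 without tag set C and 0.28 without D, and -1.06 to 0.75 when 1 library was left out. *Tec* had 0.17 without the block, 0.05 with the length offset and without A, 0.06 without D, and -0.14 to 0.09 over the libraries. *Cd244a* had 0.05 without A and 0.02 without C. *Ifng* had -0.47 without A (-0.42 to 0.91 over the libraries), *Tox* 0.06 without B (-0.17 to 0.06) and *Irf4* -0.31 to 0.03 over the libraries. On the linear scale 473 of the 545 positive and 134 of the 134 negative genes had the same sign, and the called values of *Ccl3* (-105), *Irf8* (-1572), *S1pr1* (-1329), *Klf3* (-61.1), *Il6ra* (-335), *Itgae* (-1153) and *Foxp3* (-32.9) turned, because fold changes weigh low starting levels more. The other causes were not tested.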
